A study of Homo sapiens with 4 samples.

Results

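The mitotic spindle, kinetochore and checkpoint genes were 52 genes chosen by name and matched by symbol to the Ensembl identifiers of the count table, out of 58233 gene identifiers in all. They covered the kinases and phosphatases of mitotic entry, the spindle checkpoint, the trigger of anaphase, the chromosomal passenger complex, the inner centromere and outer kinetochore, the mitotic kinesins, other spindle proteins, condensin, TOP2A and MKI67, and the transcription factors FOXM1 and MYBL2. The rule sets no threshold on measured values, but the genes were chosen with earlier results of these data known. Shares of the 52 given beside all tested genes therefore describe the set and are no test of enrichment. All 52 had enough counts to be compared in both cell lines, with 231 to 28257 counts in a library.

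The cells were MIA PaCa-2 and PANC-1, established human pancreatic cancer cell lines labelled as wild type (WT). That label was not checked here against the sequence of any gene. They received cannabichromene (CBC), a non-psychoactive cannabinoid of the cannabis plant, or PBS, and polyA RNA was sequenced after 24 h. The methods give 35 μM CBC for MIA PaCa-2 and 30 μM for PANC-1, and they call the controls vehicle where the sample labels say PBS. The CBC stock was in acetonitrile according to the methods. If the controls received PBS without acetonitrile, CBC and its solvent cannot be told apart. Each of the 4 conditions had 1 library, with 21742775 to 27903667 counts on genes, so differences inside a line stand without replication, and the doses differ between the lines. The 2 lines have separate controls.

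Mitosis begins when cyclin-dependent kinase 1 is switched on by CDC25 phosphatases and the polo-like and aurora kinases join it. Kinetochores assemble on centromeres and capture spindle microtubules, and the spindle checkpoint holds the anaphase promoting complex inactive until every chromosome is attached. Many genes of this programme are transcribed late in the cell cycle, when the MuvB complex, with MYBL2 and FOXM1, acts at a promoter element called the cell cycle genes homology region (CHR). MuvB joined to RBL1 or RBL2 in the DREAM complex represses the same genes in resting cells.

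The promoters of 43 of the 52 genes were found in RefSeq's 300-base windows on GRCh38.p14, from 250 bases before the transcription start to 50 after, read on the strand of the gene and with the first listed window taken for the 7 genes that had more than 1. AURKA, TTK, CENPH, CENPM, BIRC5, BUB3, TPX2, UBE2C and FOXM1 were not matched. The CHR letters TTTGAA, searched on both strands, were in 30 of the 43 windows (69.8%) and in 15.4% of the windows of all 27305 genes. The following stretches run from 60 bases before the start to 20 after it, 1 or 2 from most of the functional groups, and are shown because the element sits near the start in each. Capitals mark TTTGAA, or TTCAAA where the letters lie on the opposite strand.
PLK1 (chr16:23678829-23678908, plus strand): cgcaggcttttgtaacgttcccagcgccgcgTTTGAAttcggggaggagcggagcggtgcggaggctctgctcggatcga
BUB1B (chr15:40161009-40161088, plus strand): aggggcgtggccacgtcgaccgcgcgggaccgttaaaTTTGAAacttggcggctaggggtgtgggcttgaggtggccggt
ESPL1 (chr12:53268239-53268318, plus strand): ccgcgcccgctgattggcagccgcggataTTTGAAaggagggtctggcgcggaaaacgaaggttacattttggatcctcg
CDCA8 (chr1:37692456-37692535, plus strand): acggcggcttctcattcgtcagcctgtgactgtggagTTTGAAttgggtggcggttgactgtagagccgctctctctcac
CENPA (chr2:26785996-26786075, plus strand): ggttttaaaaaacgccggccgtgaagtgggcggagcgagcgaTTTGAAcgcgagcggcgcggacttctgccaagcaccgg
NDC80 (chr18:2571497-2571576, plus strand): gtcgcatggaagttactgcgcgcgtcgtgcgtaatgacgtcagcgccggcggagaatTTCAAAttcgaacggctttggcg
KIF4A (chrX:70290044-70290123, plus strand): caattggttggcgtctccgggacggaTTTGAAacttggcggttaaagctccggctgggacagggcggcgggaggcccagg
KIF11 (chr10:92593070-92593149, plus strand): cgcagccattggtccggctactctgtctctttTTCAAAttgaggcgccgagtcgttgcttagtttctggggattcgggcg
HMMR (chr5:163460572-163460651, plus strand): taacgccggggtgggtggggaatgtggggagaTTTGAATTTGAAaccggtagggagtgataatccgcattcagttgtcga
NCAPG (chr4:17810919-17810998, plus strand): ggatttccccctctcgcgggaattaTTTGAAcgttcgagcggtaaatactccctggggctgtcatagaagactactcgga
MKI67 (chr10:128126404-128126483, minus strand): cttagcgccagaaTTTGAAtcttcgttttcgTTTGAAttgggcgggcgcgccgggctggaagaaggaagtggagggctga
The letters began 23 bases before the start in both BUB1B and CDCA8, 29 before it in PLK1 and 34 before it in KIF4A. HMMR carried the 6 letters back to back, and MKI67 carried them 2 times, 47 and 29 bases before the start. In KIF11 and NDC80 they were on the opposite strand. Within 100 bases before to 50 after the start, 27 of the 43 windows (62.8%) had a match, against 6.91% of all windows. Most of the matches of the mitotic genes lay close to the start. In the bin from 40 to 11 bases before it, 27.9% of their windows had a match, against 1.60% of all windows.

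**Figure D1:**
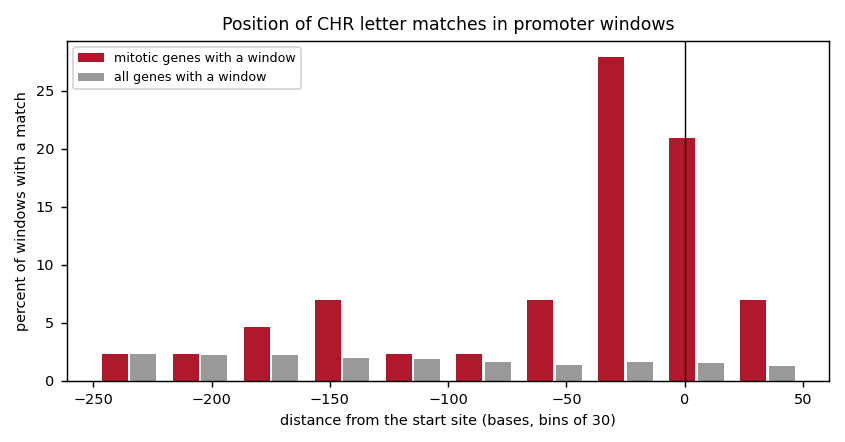
Percent of promoter windows with a CHR letter match that begins in each bin of 30 bases, by distance from the start site in bases. The mitotic genes with a window (43) are in red and all 27305 genes with a window in grey. The red bars stand highest from 40 bases before the start to 19 after it, at 27.9% and 20.9%, and the grey bars stay between 1.23% and 2.33%.

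The letters CCAAT, the core of the NF-Y binding motif, were on either strand in 28 of the 43 windows (65.1%) and in 35.7% of all windows. CCAAT and CHR letters stood together in 21 of the 43 windows, against 6.08% of all windows. The E2F letters TTTCCCGC or TTTGGCGC were in 3 of the 43 (6.98%), those of CENPA, KIF15 and NUSAP1, against 2.31% of all windows. The 30 DNA replication genes listed for comparison had E2F letters in 14 of 27 windows (51.9%), CHR letters in 1 of 27 (3.70%) and CCAAT in 15 of 27 (55.6%). A CHR match can share its last base with a CCAAT match on the other strand, as in CDCA8 and MKI67. Such matches describe the sequence and are neither shown binding sites nor causes.

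After CBC, the mitotic genes were lower in both lines. In MIA PaCa-2, 33 of the 52 were lower by more than 2-fold, where 8.97% of the 14001 tested genes were. In PANC-1, 45 of the 52 were, against 7.03% of 14091 tested genes. None of the 52 was higher by more than 2-fold in either line, where 11.5% of tested genes were in MIA PaCa-2 and 7.71% in PANC-1. The median log2 fold change of the 52 was -1.14 in MIA PaCa-2 and -1.35 in PANC-1, beside medians of -0.01 and 0.02 over all tested genes. In the median gene 45.3% of the control level was left in MIA PaCa-2 and 39.3% in PANC-1. In bulk RNA, fewer cells in mitosis and less of these messages per cell cannot be told apart.

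Fold changes compare CPM on library sizes scaled by TMM, and each comes with a 95% interval that covers counting error only. With the interval wholly below a log2 fold change of -1, the call held for 27 of the 52 in MIA PaCa-2 (5.11% of all tested genes) and for 42 in PANC-1 (4.47%). In both lines together, 30 of the 52 were lower by more than 2-fold, against 2.98% of the 12502 genes tested in both. Another 3 passed in MIA PaCa-2 alone (CDC25B, CENPE and CENPH), 15 in PANC-1 alone, and 4 in neither (CDC25C, BUB3, KIF2C and SKA1).

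CBC can be tested only over both lines, which then serve as a pair of replicates, here with the cell line as a block. By edgeR's quasi-likelihood test with Benjamini-Hochberg adjustment over 16381 genes, 38 of the 52 fell and 0 rose, where 2.45% of all genes fell and 2.26% rose. At an unadjusted p under 0.05, 47 of the 52 were lower and 0 were higher, beside 10.4% of all genes that were lower at that p. DESeq2's Wald test with the same block called 44 of the 52 lower, and 4.38% of all genes. This fit has 1 residual degree of freedom, so its p-values lean on the spread shared across genes. Without the cell line as a block, 0 of the 52 passed, and 30 were lower at an unadjusted p under 0.05, against 1.12% of all genes. Together the 52 genes took 1.17% of the counts in the MIA PaCa-2 control and 0.588% after CBC, and 1.10% and 0.494% in PANC-1. The share of counts on mitochondrially encoded genes was also lower after CBC, from 5.81% to 3.86% in MIA PaCa-2 and from 4.63% to 2.42% in PANC-1. Its part in these results was not tested.

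**Figure D2:**
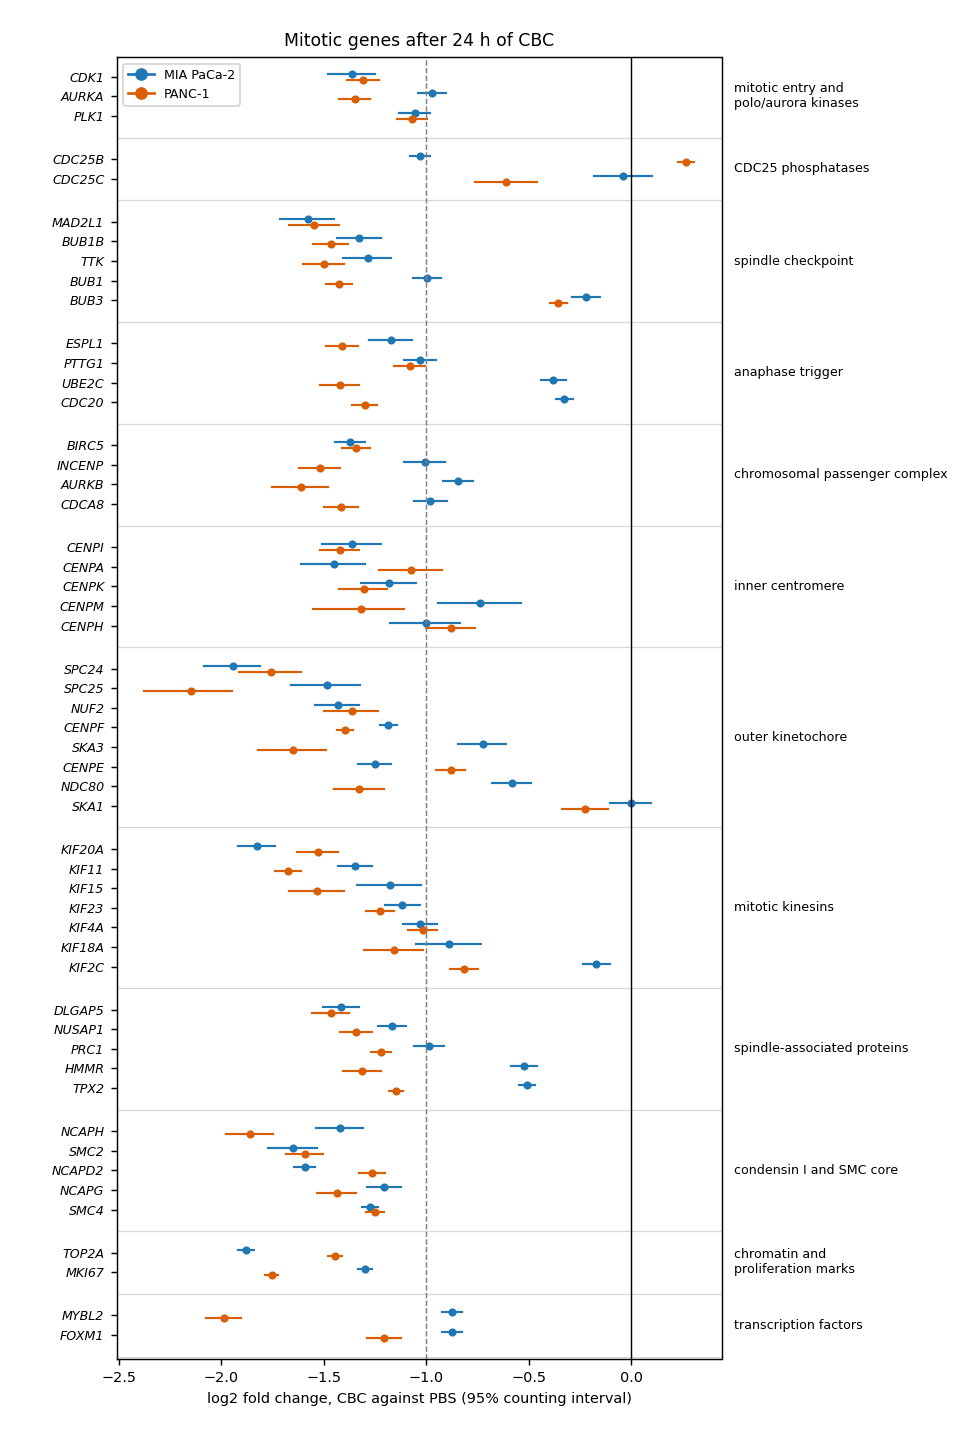
Log2 fold change of CBC against PBS for each of the 52 genes, grouped by role, in MIA PaCa-2 (blue) and PANC-1 (orange). Points are 1 library against 1 library and bars are 95% counting intervals. The dashed line marks a 2-fold lower level. CDC25B in PANC-1 is the point clearly to the right of 0, at 0.27.

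CDK1, the kinase that drives entry into mitosis, had 2048 counts with PBS and 884 with CBC in MIA PaCa-2, and 4304 and 2089 in PANC-1. PLK1, which acts in centrosome maturation and spindle assembly, had 3996 and 2136 counts in MIA PaCa-2 and 4038 and 2313 in PANC-1. The log2 fold change of CDK1 was -1.36 and -1.31 in the 2 lines, and that of PLK1 was -1.06 and -1.07. PLK1 thus stood at the same level in both controls, 180 and 178 CPM, and was lower to the same extent in both lines. AURKA, the centrosomal aurora kinase, had log2 fold changes of -0.97 and -1.35. By edgeR's quasi-likelihood test across both lines all 3 fell (adjusted p = 0.0181 for CDK1, 0.028 for AURKA and 0.0299 for PLK1).

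The CDC25 phosphatases, which remove the inhibitory phosphates from CDK1, were the group with the highest medians, -0.53 in MIA PaCa-2 and -0.17 in PANC-1. CDC25B (chr20:3786772-3806121 on GRCh38) had 8866 counts with PBS and 4830 with CBC in MIA PaCa-2, but 8522 and 12319 in PANC-1. The controls were alike, at 399 and 375 CPM, and the CBC libraries lay on either side of them, at 195 and 451 CPM. Its log2 fold change was -1.03 in MIA PaCa-2 (95% counting interval -1.08 to -0.98) and 0.27 in PANC-1 (0.23 to 0.31). CDC25C had 773 and 836 counts in MIA PaCa-2 and 798 and 628 in PANC-1. Its log2 fold change was -0.040 in MIA PaCa-2 (-0.18 to 0.10), with the opposite sign when library totals were used for scaling, and -0.61 in PANC-1 (-0.76 to -0.46). Neither phosphatase passed the test across both lines (adjusted p = 0.516 and 0.547, edgeR). CDC25C shares its locus with FAM53C on the other strand, which had 2244 and 6063 counts in MIA PaCa-2 and 1916 and 3330 in PANC-1. The paper names a directional kit for the libraries, but whether reads were counted by strand is not given in the sources used here.

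Of the 5 spindle checkpoint genes, 4 fell in the test across lines. MAD2L1, a core component of the checkpoint's inhibitory complex, was the lowest, with 1757 and 653 counts in MIA PaCa-2 and 1879 and 772 in PANC-1. Of its control level 33.4% was left in MIA PaCa-2 and 34.2% in PANC-1. BUB1, a checkpoint kinase of the kinetochore, had 4872 and 2714 counts in MIA PaCa-2 and 6664 and 2982 in PANC-1. With 50.1% of control left in MIA PaCa-2 it was just short of the 2-fold threshold there, and 37.2% was left in PANC-1. BUB1B, which encodes the checkpoint protein BUBR1, and TTK, the kinase MPS1, had log2 fold changes from -1.29 to -1.50 across the lines. BUB3, the WD-repeat partner that carries BUB1 and BUBR1 to the kinetochore, had 3605 and 3442 counts in MIA PaCa-2 and 9509 and 8932 in PANC-1. Its log2 fold changes of -0.22 and -0.36 did not pass the test (adjusted p = 0.431, edgeR). BUB1 and BUB1B fell (adjusted p = 0.0242 and 0.0172, edgeR), and the difference between BUB3 and its partners was not tested.

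The genes that trigger anaphase were all lower by more than 2-fold in PANC-1, and 2 of the 4 were in MIA PaCa-2. ESPL1, which encodes separase, the protease that cuts cohesin, was the lowest on average, with 2236 and 1102 counts in MIA PaCa-2 and 4227 and 1911 in PANC-1. PTTG1, its inhibitor securin, had log2 fold changes of -1.03 and -1.08, and both ESPL1 and PTTG1 fell across lines (adjusted p = 0.0213 and 0.031, edgeR). CDC20, the activator of the anaphase promoting complex, had 10564 and 9376 counts in MIA PaCa-2 and 6559 and 3204 in PANC-1. After CBC 79.8% of its control level was left in MIA PaCa-2 and 40.6% in PANC-1. UBE2C, the ubiquitin-conjugating enzyme of that complex, followed the same split, with 76.8% and 37.3% left. Neither CDC20 nor UBE2C passed across lines (adjusted p = 0.131 and 0.124, edgeR). Reads of near-identical copies could be split between loci. The copy CDC20P1 had 186, 114, 0 and 0 counts and UBE2CP5 had 140, 332, 137 and 143 in the order MIA PaCa-2 PBS and CBC, PANC-1 PBS and CBC.

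All 4 genes of the chromosomal passenger complex, which corrects wrong attachments at the centromere, fell across lines. BIRC5 (survivin) had the lowest mean of the lines, though not the lowest value in PANC-1, with 4930 and 2121 counts in MIA PaCa-2 and 5618 and 2664 in PANC-1, and its log2 fold changes of -1.37 and -1.34 were nearly equal. CDCA8 (borealin) was lower by the least on average, with 3564 and 2010 counts in MIA PaCa-2 and 3733 and 1682 in PANC-1. AURKB, the kinase of the complex, had 3796 and 2351 counts in MIA PaCa-2 and 1574 and 618 in PANC-1. AURKB, CDCA8 and INCENP, the scaffold, were at -0.84, -0.98 and -1.01 on the log2 scale in MIA PaCa-2 and lower in PANC-1, at -1.61, -1.41 and -1.52. Of the 4, BIRC5 alone had counting intervals that overlapped between the lines, with 38.7% and 39.5% of control left.

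Of the 5 inner centromere genes, CENPI, CENPA and CENPK fell, and CENPM and CENPH had adjusted p of 0.107 and 0.0675 (edgeR). CENPI had 1316 and 569 counts in MIA PaCa-2 and 3011 and 1350 in PANC-1, the lowest mean of the group. CENPA, the histone H3 variant that marks the centromere, had log2 fold changes of -1.45 and -1.07. It overlaps SLC35F6 on the same strand, which had more counts after CBC in both lines (2504 and 4107, then 1455 and 3221). CENPH had 801 and 444 counts in MIA PaCa-2 and 1458 and 952 in PANC-1, with 49.8% and 54.3% of control left. Its mean was the highest of the group, although CENPM was less low in MIA PaCa-2 (-0.74), and its counting intervals in the 2 lines overlapped.

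The outer kinetochore, which binds the microtubule, held both the gene with the lowest mean log2 fold change and the one nearest its control in MIA PaCa-2. SPC24 had 1928 counts with PBS and 556 with CBC in MIA PaCa-2, and 1339 and 475 in PANC-1. With 25.9% and 29.5% of control left, it had the lowest mean log2 fold change of the 52 genes, -1.94 and -1.76 in the 2 lines. SPC25, its partner in the NDC80 complex, was lowest in PANC-1, at 858 and 231 counts and 22.4% of control. Of the other two subunits of this 4-protein complex, NUF2 had log2 fold changes of -1.43 and -1.36, and NDC80 had -0.58 and -1.33. In MIA PaCa-2 the log2 fold changes of the 4 subunits thus spread from -1.94 to -0.58, and the counting intervals of SPC24 and NDC80 were far apart (-2.09 to -1.81 and -0.68 to -0.49). SPC24, SPC25 and NUF2 fell across lines, and NDC80 did not pass (adjusted p = 0.0862, edgeR).

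SKA1, a subunit of the ring that tracks the microtubule tip, had 1546 and 1717 counts in MIA PaCa-2 and 1315 and 1351 in PANC-1. Its level was 69.5 and 69.4 CPM in MIA PaCa-2, and its log2 fold change there changed sign when library totals were used. In PANC-1 the log2 fold change of SKA1 was -0.23 (95% counting interval -0.34 to -0.12). SKA3, of the same complex, had -0.72 and -1.65, and neither passed across lines (adjusted p = 0.827 and 0.0659, edgeR). CENPF and the kinesin CENPE, both of the outer kinetochore's fibrous corona, fell (adjusted p = 0.0144 and 0.0334). CENPE was lower in MIA PaCa-2 than in PANC-1, at -1.25 and -0.88, with separate counting intervals.

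**Figure D3:**
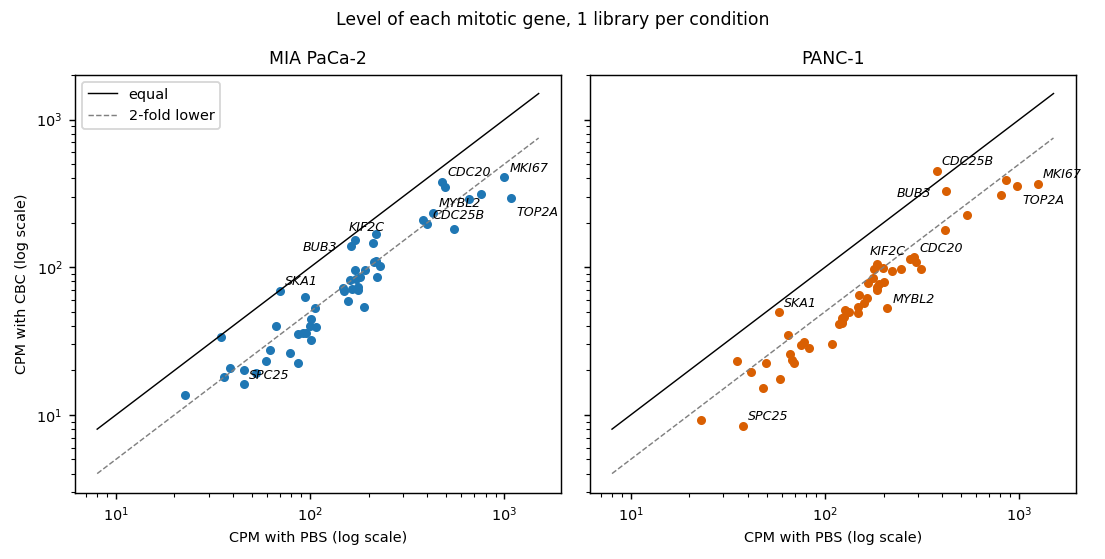
CPM of each of the 52 genes with PBS (horizontal) and with CBC (vertical), both on log scales, for MIA PaCa-2 (left) and PANC-1 (right). The solid line marks equal levels and the dashed line a 2-fold lower level. Most points lie near or under the dashed line over the whole range of levels, and SKA1 and BUB3 lie nearer the solid line in both panels.

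The mitotic kinesins move chromosomes, slide spindle microtubules and build the midzone, and 5 of the 7 fell. KIF20A, which brings the passenger complex to the central spindle, had the lowest mean of the lines, with 4231 and 1325 counts in MIA PaCa-2 and 2770 and 1153 in PANC-1. In PANC-1 KIF11 was lower than KIF20A (-1.528), and KIF15 was slightly so (-1.531). KIF11 (Eg5), which pushes the spindle poles apart, had log2 fold changes of -1.35 and -1.67, and its helper KIF15 had -1.18 and -1.53. KIF23, of centralspindlin, and the chromokinesin KIF4A lay near the 2-fold line in both lines, between -1.02 and -1.22. KIF18A, which limits chromosome movement, had -0.89 and -1.16 (adjusted p = 0.0628, edgeR). KIF2C (MCAK), a microtubule depolymerase, was the exception, with 3799 and 3754 counts in MIA PaCa-2 and 4217 and 2883 in PANC-1. Its 88.8% and 56.9% of control did not pass the test (adjusted p = 0.279, edgeR).

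Among the spindle-associated proteins DLGAP5, NUSAP1 and PRC1 fell. DLGAP5 (HURP), which stabilizes kinetochore fibres, was the lowest, with 3484 and 1453 counts in MIA PaCa-2 and 3361 and 1463 in PANC-1. TPX2, the activator of aurora A on the spindle, had 10964 and 8572 counts in MIA PaCa-2 and 19454 and 10570 in PANC-1, the highest mean log2 fold change of the group. TPX2 and HMMR were lower in PANC-1 (-1.15 and -1.31) than in MIA PaCa-2 (-0.51 and -0.52) and did not pass across lines (adjusted p = 0.074 and 0.0883, edgeR). HMMR is the gene printed above with the CHR letters back to back.

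Condensin, which compacts chromosomes, was the largest group in which every gene fell and every gene was lower by more than 2-fold in both lines. On the log2 scale the 5 genes spread from -1.21 to -1.65 in MIA PaCa-2 and from -1.25 to -1.86 in PANC-1. NCAPH, the kleisin subunit, had 2126 and 882 counts in MIA PaCa-2 and 2478 and 819 in PANC-1, and the lowest mean. SMC4 had 16833 and 7741 counts in MIA PaCa-2 and 12245 and 6188 in PANC-1, the highest mean of the 5, with 41.3% and 42.1% left. Its partner SMC2 was at 31.8% and 33.1%. NCAPD2 was lower in MIA PaCa-2 (-1.59) than in PANC-1 (-1.26), while NCAPG was lower in PANC-1 (-1.21 and -1.43).

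TOP2A, the topoisomerase that untangles sister chromatids, had 23961 counts with PBS and 7242 with CBC in MIA PaCa-2, and 22094 and 9750 in PANC-1. Its log2 fold changes were -1.88 and -1.45, and it had the smallest adjusted p of the 52 genes (0.00835, edgeR's quasi-likelihood test). MKI67, the proliferation marker Ki-67 that coats mitotic chromosomes, had 22227 and 10057 counts in MIA PaCa-2 and 28257 and 10069 in PANC-1. The order of the lines was reversed, with MKI67 at -1.30 and -1.75. These were the genes with the most counts in the 2 controls, and the counting intervals of the lines were separate for both.

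The transcription factors of the late cell cycle, FOXM1 and MYBL2, were equally low in MIA PaCa-2 (log2 fold change -0.87 for each) and unequally in PANC-1. FOXM1 had 8447 and 5129 counts in MIA PaCa-2 and 3418 and 1780 in PANC-1. MYBL2 had 9539 and 5791 counts in MIA PaCa-2 and 4764 and 1443 in PANC-1. In PANC-1 the log2 fold change of FOXM1 was -1.21 and that of MYBL2 was -1.99, where 25.2% of its control level was left. Both fell across lines (adjusted p = 0.033 and 0.0364, edgeR), but neither passed when at least 1 CPM in 2 libraries was required, nor did AURKB, CENPA and CENPE.

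Over the 52 genes, 37 were lower by more in PANC-1 than in MIA PaCa-2, where 49.2% of all genes tested in both lines were. The median difference between the lines, PANC-1 minus MIA PaCa-2, was -0.22 on the log2 scale, from -1.11 for MYBL2 to 1.30 for CDC25B. For 28 genes the counting intervals were separate and PANC-1 was lower, for 6 they were separate and MIA PaCa-2 was lower, and for 18 they overlapped. Over all genes tested in both lines the intervals were separate with PANC-1 lower for 26.6% and with MIA PaCa-2 lower for 27.2%. The 5 genes with the largest gap towards PANC-1 were MYBL2, UBE2C, CDC20, SKA3 and HMMR. CDC25B, TOP2A, CENPA, CENPE, NCAPD2 and KIF20A were the 6 with separate intervals that were lower in MIA PaCa-2. With 1 library per condition the difference between lines was not tested, and line, dose and the extent of cell death cannot be told apart. As a description, the log2 fold changes of the 2 lines had a Pearson correlation of 0.499 and a Spearman correlation of 0.465 over the 52 genes, which share their libraries.

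The controls themselves were mostly alike. For 44 of the 52 genes the PANC-1 control was within 2-fold of the MIA PaCa-2 control, with a median log2 ratio of 0.02. FOXM1 was at the low end, with a log2 ratio of -1.34 between the controls (PANC-1 over MIA PaCa-2), and BUB3 was at the high end, at 1.37. Per length, in TPM over the exons of each gene, CDC20 was the most abundant of the 52 in the MIA PaCa-2 control (890 TPM) and TPX2 in the PANC-1 control (896 TPM). CENPI was the least abundant in the first (32.0 TPM) and CDC25C in the second (39.8 TPM).

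**Figure D4:**
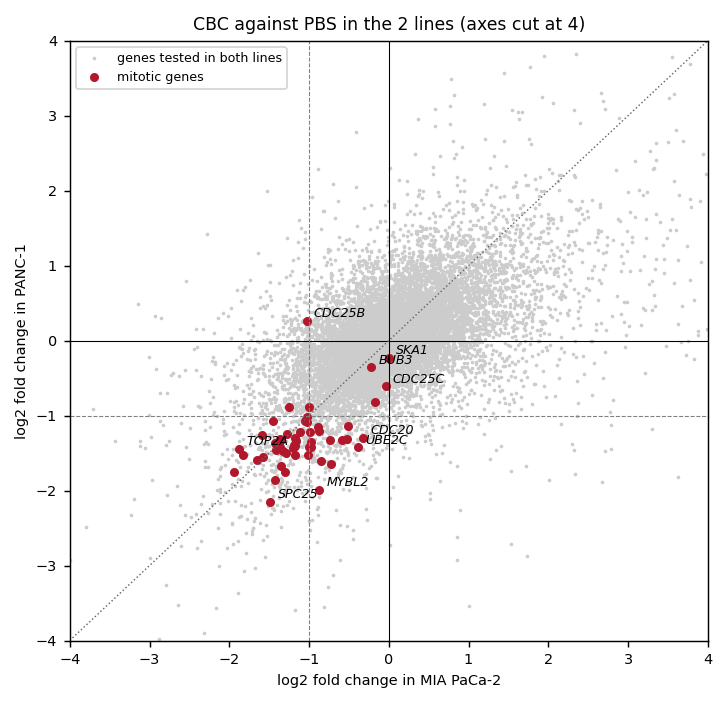
Log2 fold change of CBC against PBS in MIA PaCa-2 (horizontal) and in PANC-1 (vertical). Red points are the 52 mitotic genes and grey points the other genes tested in both lines, with both axes ending at 4. Dashed lines mark a 2-fold lower level and the dotted line equal change. The red points gather in the lower left, more of them under the dotted line than over it, and CDC25B stands alone above 0 on the vertical axis.

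The fold changes were also set beside the promoter letters, with no test. The 30 with a match had a median of -1.18 on the log2 scale in MIA PaCa-2 and -1.38 in PANC-1, and the 13 without had medians of -1.03 and -1.42. SPC24, the gene with the lowest mean, had no match. SKA1, at 99.9% of control in MIA PaCa-2, had a match that began 35 bases after the start. The 6 genes with none of the 3 sets of letters were CDC25B, CDC25C, KIF2C, MYBL2, CENPI and CENPE, and their log2 fold changes ran from -1.36 to -0.040 in MIA PaCa-2 and from -1.99 to 0.27 in PANC-1. The search read only exact letters in the first listed window of each gene. Variant letters and other start sites were not searched here, so no match does not show that a promoter lacks the element.

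Related genes outside the 52 were counted from lists. Over all tested genes, 8.97% in MIA PaCa-2 and 7.03% in PANC-1 were lower by more than 2-fold, and 2.45% fell across lines. Of 5 other mitotic kinesins, 2 were lower by more than 2-fold in MIA PaCa-2 and 5 in PANC-1, and 4 fell across lines. KIF20B had 2954 and 1144 counts in MIA PaCa-2 and 5658 and 2558 in PANC-1, KIF18B had log2 fold changes of -1.23 and -1.63, and KIF22 had the highest mean (-0.66 and -1.21). The 16 kinesins and light chains of vesicle and organelle transport were counted beside them. None of the 15 tested in MIA PaCa-2 or the 14 tested in PANC-1 was lower by more than 2-fold, their medians were 0.12 and 0.37, and their smallest adjusted p was 0.0695 (edgeR), that of KIF1A. KIF5B, the main conventional kinesin, had the lowest mean of those tested in both lines (-0.40 and -0.022). KIF1A had the highest such mean, with 1381 and 5521 counts in MIA PaCa-2 and 6558 and 11790 in PANC-1, where KIF13B was higher (1.39 against 0.58).

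Among 16 other spindle and cytokinesis genes, 8 were lower by more than 2-fold in MIA PaCa-2 and 9 in PANC-1, and 10 fell across lines. ANLN (anillin), which organizes the cleavage furrow, had 12707 and 3409 counts in MIA PaCa-2 and 18259 and 5427 in PANC-1, with log2 fold changes of -2.05 and -2.02. ASPM, a spindle pole protein, had -1.95 and -1.45, and NUMA1, another, had -0.12 and -0.14 (adjusted p = 0.747, edgeR). Of the 3 subunits particular to condensin II, NCAPD3 and NCAPG2 fell and NCAPH2 did not pass (log2 fold changes -0.29 and -0.69). Of the A and B cyclins, which activate CDK1, CCNA2 (-1.35 and -1.52) and CCNB1 (-0.88 and -1.24) fell, and CCNB2 had -0.90 and -0.72 (adjusted p = 0.0725, edgeR).

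A list of other centromere and kinetochore genes had less low medians than the mitotic genes (-1.14 in MIA PaCa-2 and -1.35 in PANC-1). Both sets were chosen with earlier results of these data known. The comparison therefore cannot show how the rest of the kinetochore changed, and the difference was not tested. Of 21 other centromere and kinetochore genes, 6 were lower by more than 2-fold in MIA PaCa-2 and 7 in PANC-1, with medians of -0.62 and -0.91, and 4 fell. ZWINT (-1.37 and -2.10) and KNL1 (-1.66 and -1.37), the scaffold for BUB1 and BUB3, had the lowest means of the lines, and MIS12 had the highest (0.59 and -0.46). In MIA PaCa-2 alone SKA2 was lower than either (-1.91). Of 13 other checkpoint genes, 4 were lower by more than 2-fold in each line and 4 fell. KNTC1 (ROD) had log2 fold changes of -1.41 and -1.71, SPDL1 had -0.51 and -1.90, and BOD1 had the highest mean of the lines (0.13 and 0.56). In MIA PaCa-2 alone MAD1L1 was higher (0.80).

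Among 17 genes of the anaphase promoting complex and its regulators, 2 were lower by more than 2-fold in MIA PaCa-2 and 1 in PANC-1. These counts were near the shares over all tested genes, 8.97% and 7.03%, and the medians were -0.27 and -0.12. The 1 that fell, FBXO5 (EMI1), is not a subunit but an inhibitor of the complex, with 1400 and 452 counts in MIA PaCa-2 and 1757 and 741 in PANC-1. ANAPC15, a subunit, had -1.16 and -0.52, and CDC16, another, had 0.13 and 0.51. Of 8 cohesin genes, SMC1A fell (-1.22 and -1.09), RAD21 had -0.97 and -0.60 (adjusted p = 0.0713, edgeR) and STAG1 had 0.029 and 0.039. By count, 2 of the 8 cohesin genes were lower by more than 2-fold in MIA PaCa-2 and 1 in PANC-1, beside the same shares over all tested genes. Their medians were -0.41 and -0.26.

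Of 11 genes of the MuvB and DREAM complexes, 2 were lower by more than 2-fold in each line, with medians of -0.17 and -0.49. RBL1 (-1.20 and -1.64), TFDP1 (-1.52 and -1.25) and RBBP4 fell, while RBL2 had -0.92 and 0.018 (adjusted p = 0.396, edgeR). The MuvB subunit LIN37 was the highest (1.51 and 0.70, adjusted p = 0.169, edgeR), on 68 control counts in MIA PaCa-2 and 114 in PANC-1. LIN54, which binds the CHR letters, had -0.17 and -0.69 (adjusted p = 0.409, edgeR). RBL2, LIN54 and RBBP4 were named after their values were seen. The 30 replication genes were lower than the mitotic genes in PANC-1. There all 30 were lower by more than 2-fold, with a median of -1.91, against 16 of 30 and a median of -1.17 in MIA PaCa-2, and 25 fell across lines. By the mean of the lines MCM10 and MCM4 were the lowest (-1.55 and -2.88, -1.58 and -2.65), and GINS3 was the highest (0.31 and -1.01). In MIA PaCa-2 alone MCM3 was lower than either (-1.73).

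**Figure D5:**
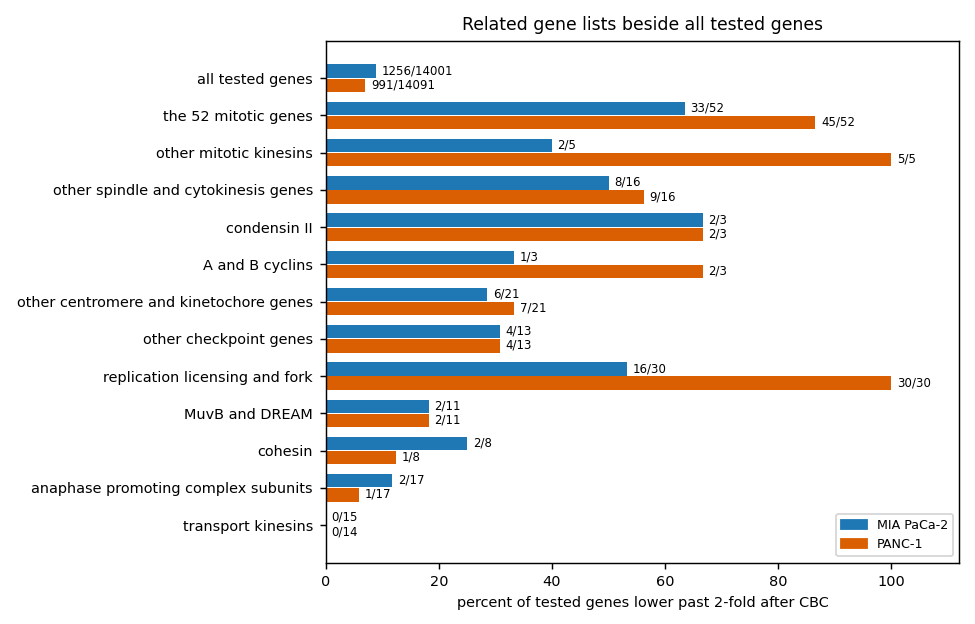
Percent of the tested genes of each list that were lower by more than 2-fold after CBC, in MIA PaCa-2 (blue) and PANC-1 (orange), with the numbers lower and tested at the end of each bar. All tested genes are the top pair of bars, at 8.97% and 7.03%. The mitotic genes reach 33 of 52 and 45 of 52, and the transport kinesins 0 of 15 and 0 of 14.

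As a check of the cells, the epithelial keratins KRT8, KRT18 and KRT19 were at 161 to 1801 CPM in every library. EPCAM and CDH1, also epithelial, had 0 to 1 counts in MIA PaCa-2. In PANC-1, EPCAM had 264 and 250 counts with PBS and CBC, and CDH1 had 32 and 131. Of 15 fibroblast, leukocyte and endothelial markers, PTPRC, CD3E, PECAM1, DCN and LUM had 0 counts in all 4 libraries. COL1A2 had 8174 and 2348 counts in MIA PaCa-2, and COL1A1 had 3037 and 1268 in PANC-1. In MIA PaCa-2, CD14 had 123 and 18 counts, COL3A1 61 and 2, CDH5 49 and 7, LYZ 23 and 3, and PDGFRB 0 and 15. In PANC-1, CD14 had 32 and 2 and PDGFRB 54 and 18. The remaining values of these 15 markers were at most 13 counts. The part of these genes in the results was not tested.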

How the data were processed

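Before deposit, the authors used cutadapt 2.7 for trimming, STAR for alignment (GRCh38) and HTSeq for counting on genes of Ensembl release 89. They deposited raw counts and, per library, a normalized signal, which equals CPM on TMM-scaled library sizes (largest relative difference 6.84e-09) and was used only as an alternative. No deposited column lacked a sample.

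Here, from the counts, log2 fold changes came from edgeR 4.0.16 (R 4.3.3, TMM, prior count 2) for genes that reached 1 CPM in either library of a line, with exact binomial 95% intervals. The limit that a count of 0 allows, 3 counts, is 0.108 to 0.138 CPM. CBC was tested against PBS by edgeR's quasi-likelihood test with the line as a block, at an adjusted p of 0.05. The pairing is the cell line, and paired libraries deviated together (correlation 0.923). On simulated data, the test recovered 98% of 200 genes changed 4-fold among 16080, with 5.77% false calls. The simulation gave both lines equal changes and all genes a common spread. It therefore does not measure the test on smaller changes or on changes that differ between the lines, as here. Symbols (57392 of 58233 identifiers), positions and lengths came from GENCODE 44 on GRCh38.

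The members, lists and tests were chosen with earlier results of these data known. The rule named, in each group, the lowest and highest mean and 9 fixed genes, and in each list the lowest 2 and highest 1. Alternatives changed scaling, filter, prior count, values, block and tool (DESeq2 1.42.0).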

Additional observations from a re-analysis of the deposited data

Results flagged for a closer look

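CDC25B was the gene for which the 2 lines moved in opposite directions. Its log2 fold change after CBC was -1.03 in MIA PaCa-2 and 0.27 in PANC-1, with 95% counting intervals that lay on opposite sides of 0. The counts were 8866 with PBS and 4830 with CBC in MIA PaCa-2, and 8522 and 12319 in PANC-1. The difference between the lines was not tested, because each condition had 1 library.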

How the results depend on the processing

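Scaling by TMM within each line, DESeq2 size factors or library totals, a prior count of 0.5, the deposited CPM and other filters gave 27 to 35 genes lower by more than 2-fold in MIA PaCa-2 and 43 to 45 in PANC-1, with medians of -1.16 to -1.08 and -1.37 to -1.28. Across both lines, the fits with the block gave 33 to 47 genes that fell. With at least 1 CPM in 2 libraries, AURKB, CENPA, CENPE, MYBL2 and FOXM1 no longer passed (33 genes). Without a filter 47 passed, and DESeq2's Wald test with the block called 44. TMM before the filter, an alternative chosen after seeing the data, gave 38. Without the replicate block, 0 of the 52 genes passed edgeR's test (every adjusted p = 0.999952), with 30 lower at an unadjusted p under 0.05, and 0 of 16381 genes passed, with 354 at an unadjusted p under 0.05. The block turned no direction. Counting error limited some calls: with the interval wholly below a log2 fold change of -1, 27 genes were called in MIA PaCa-2 and 42 in PANC-1. The CHR letter count was 30 in the whole window and 27 within 100 bases before to 50 after the start. Over all windows of a gene it was 31.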
